A study of Caenorhabditis elegans with 6 samples.

Results

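The genes described here are the nuclear hormone receptor genes of Caenorhabditis elegans whose symbol begins with nhr-, taken as the rows of the authors' count table with such a symbol. There were 283 of them among 46254 genes with counts. Testing required 10 or more counts in at least 2 libraries, and 193 of the 283 met this. Of the other 90, 21 had no count in any library and 5 reached 10 counts in a single library. By the annotation, 268 of the 283 are protein coding, 14 are pseudogenes and 1, nhr-284, was not found there. Nearest the limit, nhr-38, nhr-147 and nhr-287 were tested with a second highest count of 10, and nhr-260 and nhr-263 were not, with a second highest count of 8.

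Nuclear hormone receptors are transcription factors with a zinc finger domain that binds DNA and a second domain that in many members binds a small fat-soluble molecule. The worm has an unusually large set of them, most of which descend from an ancestor related to the vertebrate receptor HNF4, beside a smaller number with clear counterparts in insects and mammals. Several worm members adjust fat breakdown, desaturation and detoxification to food and stress, others time moulting and tissue formation, and most have no described role.

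The samples were whole worms of the strain CF512, collected on day 1 of adulthood. This strain carries temperature-sensitive mutations in fer-15 and fem-1, so worms raised at 25 °C make no working sperm and have no offspring. All 3 groups were of this strain and were kept at 25 °C for 48 h from the egg, so the controls were sterile too. They differed in the bacteria fed, which carried the empty vector (control worms), RNAi toward daf-2 (the insulin/IGF-1 receptor gene) or RNAi toward cav-1 (a caveolin gene), and each group had 2 libraries, 1 in each of 2 biological repeats. RNAi by feeding lowers a transcript without removing the gene, and reaches tissues unequally.

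Library totals ran from 25474328 to 32886440 counts, and the nhr- genes held between 0.141% and 0.196% of them. Levels are given as CPM, a gene's counts relative to the library total scaled by the TMM method. The RNAi targets were lower in their own groups. daf-2 had 42.6 and 188 CPM in the control worms (repeats 1 and 2) against 26.4 and 30.6 with daf-2 knocked down, and cav-1 had 178 and 184 CPM in the control worms against 6.13 and 1.84 with cav-1 knocked down. cav-1 was also lower under daf-2 RNAi, at 42.7 and 21.2 CPM. The repeats stood further apart than the treatments, with 65.9% of the variance of all tested genes on a component that separated repeat 1 from repeat 2. Of 10 sperm markers 4 had no count in any library and 1 reached the limit for testing.

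Most nhr- genes were scarce messages. The mean level of the 193 tested genes ran from 0.221 to 118 CPM with a median of 3.88 CPM. There were 29 genes under 1 CPM, 116 from 1 to 10 CPM and 48 at 10 CPM or more. The 10 genes with the highest level per transcript length together held 28% of the summed CPM of the tested members. The lowest members rest on few reads, since 10 counts correspond to between 0.296 and 0.391 scaled CPM in these libraries.

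Compared per kb of the longest transcript, nhr-49 came first at a mean of 55.4 CPM per kb. It encodes the best known HNF4-like receptor of the worm, which switches on fat breakdown and fat desaturation. nhr-17 (40.7 CPM per kb), nhr-86 (34.4), nhr-10 (31.3) and nhr-12 (26.6) followed, then nhr-69 (23.4), nhr-68 (20.7), nhr-105 and nhr-274 (both 19.8) and nhr-76 (18.2). nhr-86 encodes a receptor that senses a metabolite of pathogenic bacteria, and nhr-10 and nhr-68 act together to open an alternative route of propionate breakdown. The order was not the same in the 2 repeats. nhr-12 ranked 2 in empty vector repeat 1 and 21 in repeat 2, and nhr-10 ranked 1 and 13 in the same libraries, whereas nhr-17 kept a rank between 1 and 4 in all 6 libraries.

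**Figure D1:**
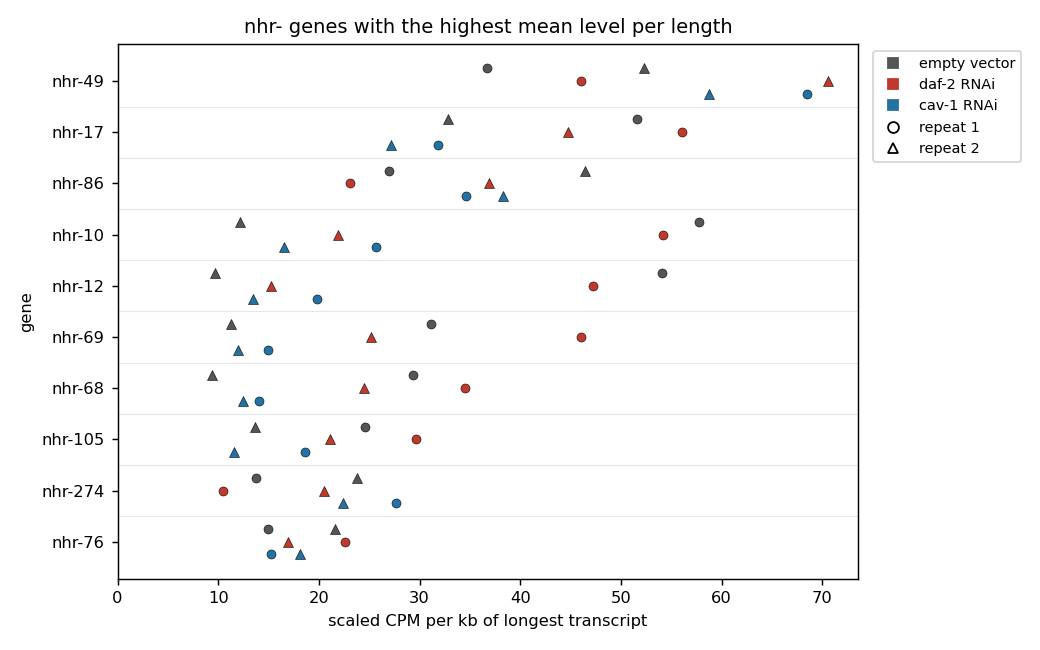
Scaled CPM per kb of longest transcript for the 10 nhr- genes with the highest mean, 1 point per library (circles repeat 1, triangles repeat 2, colours the 3 groups). nhr-10 and nhr-12 spread widely between repeats within the empty vector and daf-2 RNAi groups, while nhr-49 and nhr-17 stayed among the highest throughout.

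The first comparison, daf-2 RNAi against empty vector, asks how nuclear receptor messages differ when the insulin/IGF-1 receptor is lowered. Of the 193 tested nhr- genes 6 rose and none fell at an adjusted p under 0.05 (limma-trend with the repeat as a block, Benjamini-Hochberg over 14478 genes). They were nhr-57, nhr-206, nhr-208, nhr-114, nhr-115 and nhr-62. That is 3.11% of the members, against 7.4% of all tested genes called in either direction and 4.29% called higher, so the members were not called more often than genes at large. At an unadjusted p under 0.05 there were 42 members (21.8%), against 24.2% of all tested genes.

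nhr-57, which encodes a receptor known as a target induced by the hypoxia factor HIF-1, showed the largest rise. It stood at 3.48 and 3.61 CPM in control worms, repeats 1 and 2 in that order, 8.99 and 17.6 with daf-2 knocked down, and 4.03 and 3.82 with cav-1 knocked down. Both daf-2 RNAi libraries lay above the other 4, and their own values differed from each other more than the controls did. The log2 fold change of CPM + 1 was 1.58 (SE 0.30, adjusted p = 0.0115), with 1.16 within repeat 1 and 2.01 within repeat 2. Behind these levels were 89 and 98 counts in empty vector and 263 and 581 counts under daf-2 RNAi.

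nhr-114 and nhr-62 encode receptors of metabolism. NHR-114 protects the germline on diets poor in vitamin B12 and controls detoxification and one-carbon genes, and NHR-62 is needed for the longer life of worms on a restricted diet. nhr-114 stood at 3.67 and 7.51 CPM in control worms, 10.2 and 15.9 with daf-2 knocked down, and 4.62 and 9.99 with cav-1 knocked down. In each repeat the daf-2 RNAi library was the highest, and repeat 2 was above repeat 1 in every group, so daf-2 RNAi repeat 1 lay only just above cav-1 RNAi repeat 2. Its log2 fold change against empty vector was 1.12 (SE 0.27, adjusted p = 0.0302).

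nhr-62 stood at 5.20 and 6.26 CPM in control worms, 11.1 and 14.6 with daf-2 knocked down, and 4.06 and 4.54 with cav-1 knocked down. The 2 daf-2 RNAi libraries lay above the other 4 with no overlap. The log2 fold change against empty vector was 1.03 (SE 0.26, adjusted p = 0.0391), with 0.96 and 1.1 within the repeats.

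The other 3 genes that rose, nhr-115, nhr-206 and nhr-208, have low levels and no role stated here. nhr-206 stood at 2.50 and 0.331 CPM in control worms, 4.61 and 4.87 with daf-2 knocked down, and 1.07 and 0.829 with cav-1 knocked down. The 0.331 CPM of empty vector repeat 2 came from 9 counts, and the log2 fold change of 1.41 (SE 0.32, adjusted p = 0.0244) was 0.68 within repeat 1 and 2.14 within repeat 2. nhr-208 stood at 3.01 and 0.552 CPM in control worms, 6.05 and 4.69 with daf-2 knocked down, and 1.21 and 1.12 with cav-1 knocked down, and its log2 difference was 1.34 (SE 0.31, adjusted p = 0.0248). Both genes were lowest in empty vector repeat 2, and daf-2 RNAi stood above all other libraries in both.

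nhr-115 stood at 1.29 and 0.70 CPM in control worms, 3.18 and 3.39 with daf-2 knocked down, and 1.07 and 1.23 with cav-1 knocked down, and its log2 difference was 1.12 (SE 0.22, adjusted p = 0.0143). Its daf-2 RNAi libraries differed little from each other and did not overlap with the remaining 4.

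The calls rest on the pairing of libraries by repeat and on single libraries. Without the repeat in the fit none of the 193 members and none of all tested genes was called, and the smallest adjusted p of a member was 0.562. Leaving out daf-2 RNAi repeat 2 left no call (3.64% of all tested genes), and leaving out cav-1 RNAi repeat 1 or 2 left 1 each (6.34% and 4.74% of all). Leaving out empty vector repeat 2 left 3 members, 2 higher and 1 lower (1.55%, against 5.73% of all). Without empty vector repeat 1 there were 28, all higher (14.7%, against 12.6% of all). nhr-57 lost its call without daf-2 RNAi repeat 2 (adjusted p = 0.137, with 9.38e-05 to 0.664 over all alternatives) and kept it without each of the other 5, while nhr-62 lost it without each of the 6. By the adjusted p of the authors' deposited table there were 7 members under 0.05, 6 higher and 1 lower (3.76% of those with one), against 9.55% of all genes with an adjusted p there, and the 6 higher were the genes called here.

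**Figure D2:**
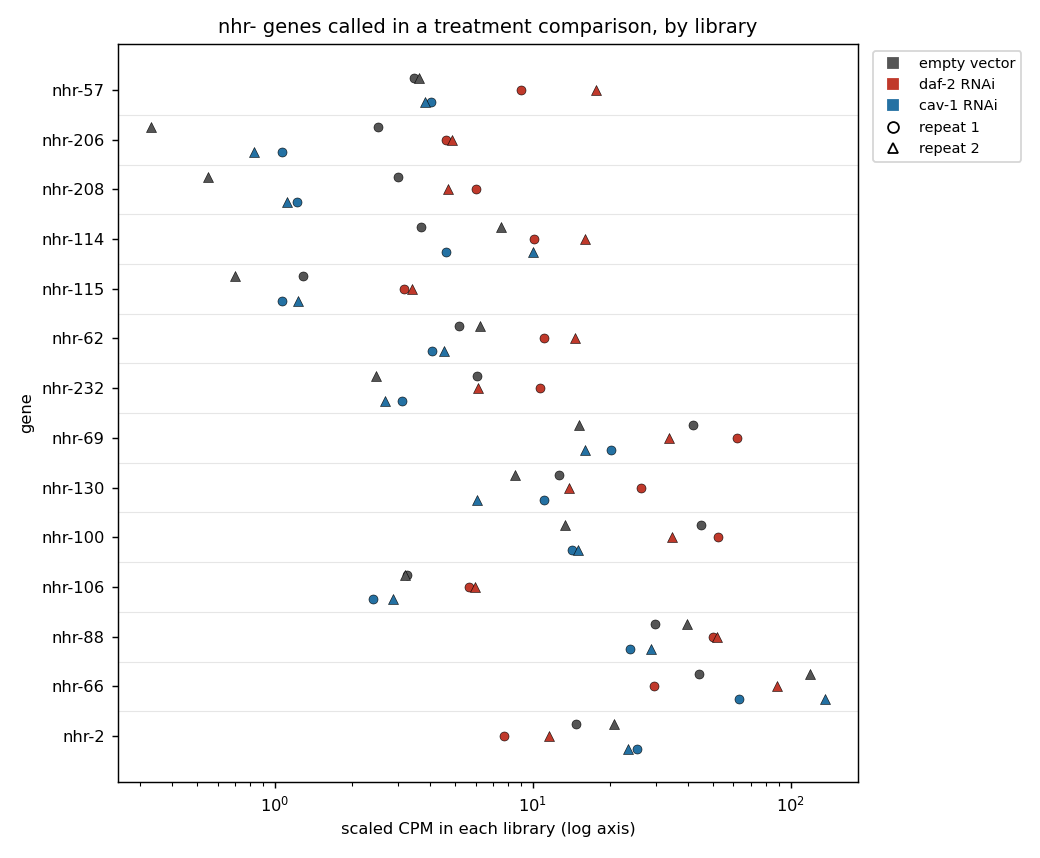
Scaled CPM on a log axis in each of the 6 libraries for the 14 nhr- genes called in a comparison of treatments (circles repeat 1, triangles repeat 2, colours the 3 groups). From nhr-57 to nhr-88 the daf-2 RNAi points lie to the right of the cav-1 RNAi points of the same repeat, and for nhr-66 and nhr-2 they lie to the left.

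Across the whole family the values leaned upward under daf-2 RNAi. The median log2 fold change of the 193 members was 0.23, against -0.05 for all tested genes. There were 146 members above 0 and 47 below, where 46.3% of all tested genes lay above 0. The median was 0.12 within repeat 1 and 0.36 within repeat 2, and 105 members lay above 0 in both repeats, 30 below 0 in both and 58 on opposite sides. Both daf-2 RNAi libraries exceeded both empty vector libraries for 44 members (22.8%, against 15.8% of all tested genes), and lay below both for 12 (6.22%, against 12% of all).

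By level, the median was 0.11 for the 29 members under 1 CPM, 0.27 for the 116 from 1 to 10 CPM and 0.20 for the 48 at 10 CPM or more. All 6 called members were in the middle class, and the added 1 CPM lowers the fold change of the scarcest genes. Of the 8 pseudogenes that were tested none was called.

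Marker genes of several tissues moved in the same comparison, in which 4.29% of all tested genes were called higher and 3.11% lower, with a median of -0.05. Among early embryo markers 6 of the 7 tested fell under daf-2 RNAi, with a median of -1.14 and a summed level of 33.1 to 45.2 CPM in control worms, 4.69 to 16.3 with daf-2 knocked down and 36.9 to 37.3 with cav-1 knocked down. None of 12 germline markers was called, with a median of -0.50 and all 12 below 0. The 12 neuron markers and the 12 muscle markers were all above 0, with medians of 0.53 and 0.50, none and 1 of them called higher. Intestine markers were mixed, with 2 higher and 3 lower of 11 tested and a median of -0.27. Of 10 tested hypodermis markers, nhr-23 and nhr-25 among them, 2 were higher and none lower. The hypodermis median was -0.03, with 5 above 0 and 5 below. The part of such shifts in the nhr- values was not tested, and in whole worms fewer cells of a type and less RNA per cell cannot be told apart.

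**Figure D3:**
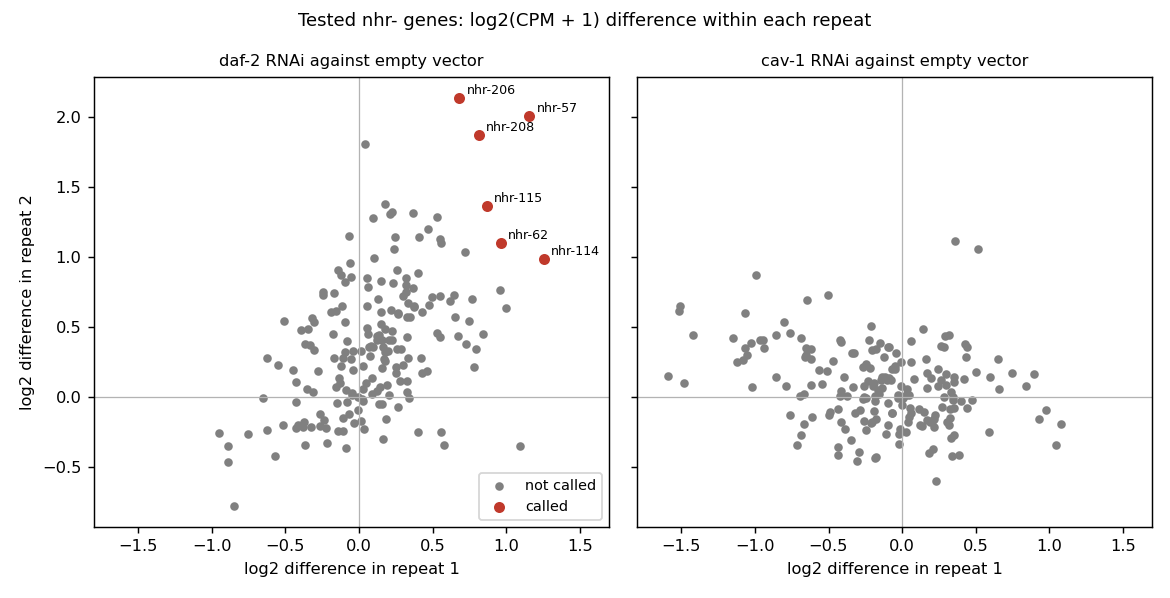
Log2 difference of CPM + 1 within repeat 1 (x axis) and within repeat 2 (y axis) for the 193 tested nhr- genes, on the left for daf-2 RNAi and on the right for cav-1 RNAi, each against the empty vector library of the same repeat. On the left 105 points lie above 0 in both repeats and the 6 called genes stand at the upper right, while on the right 117 points have opposite signs in the 2 repeats.

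Receptors with a described role were set apart by function. Of 30 such genes 28 were tested, with a median of 0.37 and 20 above 0, against a median of 0.22 and 126 above 0 for the other 165 members. Each of these sets held 3 of the 6 called genes, where 4.29% of all tested genes were called higher. The 16 metabolic receptors had 2 higher (nhr-114 and nhr-62), none lower, and a median of 0.43. The 7 stress and detoxification receptors had 1 higher (nhr-57) and a median of 0.38. None of the 9 developmental receptors was called and their median was -0.13, and none of the 9 tested receptors with close insect or mammalian counterparts was called, with a median of 0.18.

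Among metabolic receptors that missed the threshold, nhr-8 had the largest value. It encodes a relative of the dauer receptor DAF-12 that acts in cholesterol balance and in resistance to foreign compounds. It stood at 10.8 and 7.0 CPM in control worms, 11.1 and 27 with daf-2 knocked down, and 14.2 and 16.3 with cav-1 knocked down. The difference of 0.92 (SE 0.38, adjusted p = 0.170) came from repeat 2, with 1.81 there and 0.04 in repeat 1. nhr-14, a receptor linked to iron uptake and immunity, lay at 0.86 (SE 0.27, adjusted p = 0.0808), nhr-69 at 0.83, nhr-68 at 0.78 and nhr-80, a partner of nhr-49 in fat desaturation, at 0.66. nhr-49 itself was at 78.0 and 111.3 CPM in control worms and 97.9 and 150 with daf-2 knocked down, a log2 difference of 0.38 (SE 0.25, adjusted p = 0.358). Outside the lists, nhr-131 (0.91, adjusted p = 0.0982) and nhr-232 (0.88, adjusted p = 0.0966) had the next largest values that were not called.

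The 2 lowest values belonged to receptors of development. nhr-2, which is expressed in the early embryo, stood at 14.8 and 20.7 CPM in control worms, 7.76 and 11.6 with daf-2 knocked down, and 25.4 and 23.4 with cav-1 knocked down. Its daf-2 RNAi libraries were the 2 lowest, but the difference of -0.81 (SE 0.28, adjusted p = 0.111) was not called, while in the authors' deposited table it was -0.85 with an adjusted p of 0.0233. nhr-25, the counterpart of insect Ftz-F1 and needed for moulting, lay at -0.68 (SE 0.21, adjusted p = 0.0886), with 1.80 and 2.14 CPM in control worms and 0.513 and 1.27 with daf-2 knocked down. nhr-67, the counterpart of tailless, lay at -0.51 and nhr-23, the counterpart of the ROR receptors and a driver of the moulting cycle, at -0.36. The early embryo markers given above fell in the same libraries as nhr-2, and their part in its value was not tested.

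**Figure D4:**
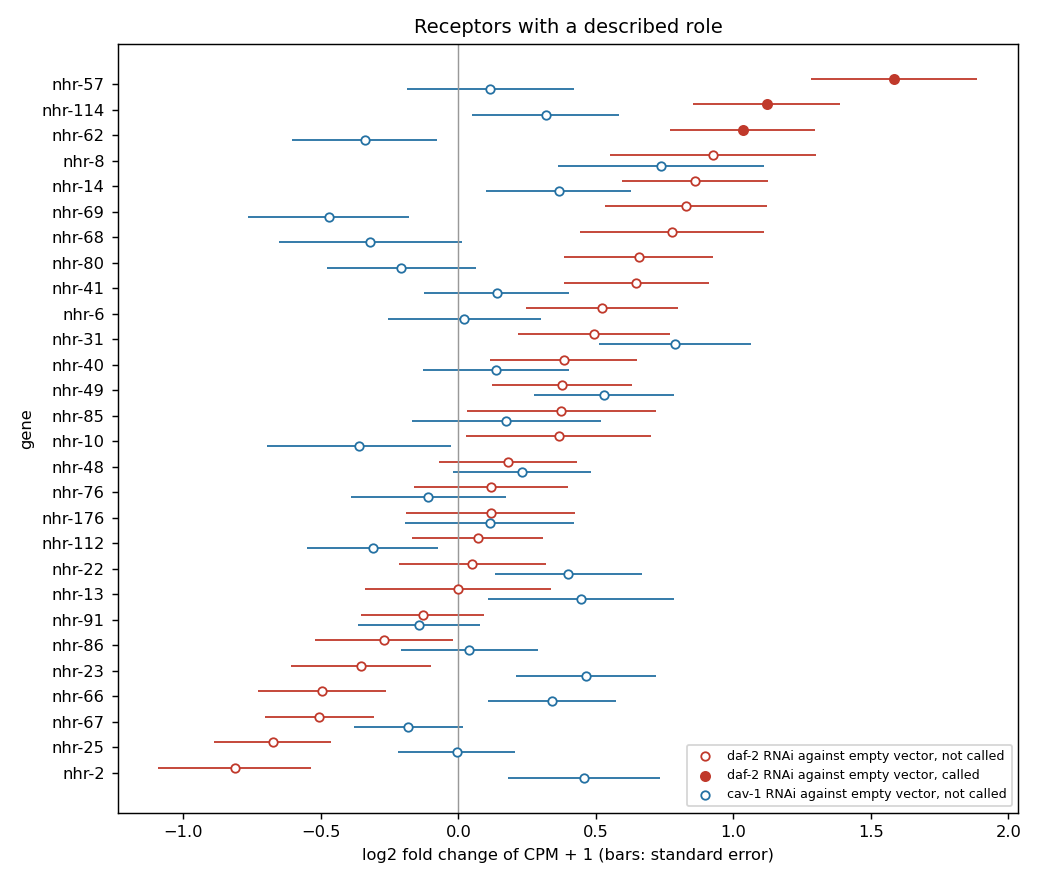
Log2 fold change of CPM + 1 with its standard error for the 28 tested nhr- genes with a described role, for daf-2 RNAi (red) and cav-1 RNAi (blue) against empty vector, filled where called. nhr-57, nhr-114 and nhr-62 are filled in red at the top, nhr-2 and nhr-25 stand lowest in red, and no blue point is filled.

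Nuclear receptor genes with other symbols showed changes in both directions. daf-12, which encodes the steroid receptor that decides between dauer arrest and reproductive growth, stood at 8.79 and 13 CPM in control worms, 20.1 and 29.5 with daf-2 knocked down, and 7.41 and 18.3 with cav-1 knocked down. It rose under daf-2 RNAi by 1.12 (SE 0.28, adjusted p = 0.0393). sex-1, which reads the number of X chromosomes in the embryo, stood at 22.8 and 44.5 CPM in control worms, 9.09 and 15.2 with daf-2 knocked down, and 30.8 and 39.0 with cav-1 knocked down, a change of -1.36 (SE 0.26, adjusted p = 0.0117). For both genes daf-2 RNAi stood apart within each repeat, above for daf-12 and below for sex-1. fax-1, odr-7 and unc-55, receptors of neuron identity, did not reach the limit for testing.

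Among genes that make or carry ligands of DAF-12, 1 of 7 tested was called, where 7.4% of all tested genes were called in either direction. This was dhs-16, a dehydrogenase in the making of dafachronic acid, which had 1.88 and 1.58 CPM in control worms and fell (adjusted p = 0.0102) to 0.103 and 0.0605 with daf-2 knocked down. The daf-2 RNAi values rest on 3 and 2 counts, so the size of the fall depends on the added 1 CPM. Its last enzyme gene, daf-9, lay at 0.01. None of the 9 cofactor genes tested, among them the Mediator subunit mdt-15 at 0.07 and the acetyltransferase cbp-1 at -0.55, was called, with a median of -0.41 and 8 of 9 below 0.

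Of 14 genes listed with NHR-49 and its partners in fat metabolism and fasting, 5 rose and 1 fell under daf-2 RNAi. Over all tested genes 4.29% were called higher and 3.11% lower. nhr-49 itself was not called, and whether these genes follow its product was not tested. The lipid chaperone gene lbp-8 stood at 3.52 and 1.77 CPM in control worms and 38.2 and 11.2 with daf-2 knocked down, a log2 change of 2.63 (SE 0.31, adjusted p = 0.00108). hacd-1 (1.48), pod-2, the acetyl-CoA carboxylase gene (1.21), acdh-2 (1.19) and fat-5, a fat desaturase gene (0.83), also rose, and cpt-5, for a carnitine palmitoyl transferase, fell by 1.15. The fasting gene acs-2 lay at -0.86 (adjusted p = 0.198) and fat-7 at -0.62 (adjusted p = 0.237). None of 10 propionate genes downstream of nhr-10 and nhr-68 and none of 11 tested moulting genes downstream of nhr-23 and nhr-25 was called, with medians of 0.33 and -0.45.

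The second comparison, cav-1 RNAi against empty vector, asks the same of the caveolin gene. No nhr- gene was called by limma-trend, where 1 of the 14478 tested genes was called (0.00691%), cav-1 itself. At an unadjusted p under 0.05 there was 1 member, nhr-31, against 4.03% of all tested genes. A fit with voom weights called no member, against 0.0345% of all tested genes, and had 3 members at that unadjusted level. In the authors' deposited table no member passed at 0.05, where 81 of 14205 genes with an adjusted p did (0.57%). The log2 fold changes of the members ran from -0.72 to 0.79, with a median of -0.02, 85 above 0 and 108 below. A majority, 117 of 193, had opposite signs in the 2 repeats.

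nhr-31, which encodes a receptor needed for tubule growth in the excretory cell, had the highest value. It had 8.87 and 15.7 CPM in control worms, 13.1 and 33.8 with cav-1 knocked down and 13.5 and 21.5 with daf-2 knocked down. Within each repeat the cav-1 RNAi library was above the empty vector, yet cav-1 RNAi repeat 1 lay below empty vector repeat 2, and the difference of 0.79 (SE 0.28, adjusted p = 0.975) was not called. Among members with the same direction in both repeats, nhr-8 (0.74) and nhr-49 (0.53) came next. nhr-100 had the lowest mean difference, -0.72, made of -1.59 in repeat 1 and 0.16 in repeat 2. Both cav-1 RNAi libraries exceeded both controls for 16 members (8.29%, against 5.69% of all tested genes) and lay below both for 14 (7.25%, against 5.45%). Leaving out empty vector repeat 2 gave 2 calls, nhr-107 and nhr-144, both lower (1.04%, against 0.861% of all), with 1 control library left.

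The third comparison set cav-1 RNAi against daf-2 RNAi and used the same daf-2 RNAi libraries as the first, so the values of the 2 comparisons are not independent. Of 193 members 13 were called (6.74%, against 10.6% of all tested genes). There were 2 higher under cav-1 RNAi (1.04%, against 3.72%), nhr-2 and nhr-66, and 11 lower (5.70%, against 6.84%). The median was -0.26, against -0.01 for all tested genes, with 51 members above 0 and the rest below. Both cav-1 RNAi libraries lay below both daf-2 RNAi libraries for 73 members (37.8%, against 21.2%) and above both for 14 (7.25%, against 16.6%).

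Side by side, nhr-57 lay at 1.58 for daf-2 RNAi against empty vector and -1.47 for cav-1 RNAi against daf-2 RNAi (adjusted p = 0.0140). The same pair of values was 1.03 and -1.37 for nhr-62, 1.41 and -1.56 for nhr-206, 1.34 and -1.55 for nhr-208, and 1.12 and -1.0 for nhr-115. For nhr-114 it was 1.12 and -0.80, and the second was not called (adjusted p = 0.0708). The libraries behind these values are given above, and cav-1 RNAi lay below daf-2 RNAi in both repeats for all 6.

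The 8 genes called here and not in the first comparison each had an empty vector mean between those of the 2 treatments. nhr-69, which acts with TGF-beta signalling in the control of insulin release, stood at 41.7 and 15.1 CPM in control worms, 61.7 and 33.7 with daf-2 knocked down, and 20.1 and 16 with cav-1 knocked down, a difference of -1.30 between the treatments (SE 0.29, adjusted p = 0.0212). nhr-100 had 52.2 and 34.6 CPM with daf-2 knocked down and 14.2 and 15 with cav-1 knocked down (-1.48, SE 0.36, adjusted p = 0.0297). In both genes empty vector repeat 1 lay near daf-2 RNAi and repeat 2 near cav-1 RNAi, with 44.9 and 13.4 CPM for nhr-100. nhr-232 (-1.23), nhr-130 (-1.13), nhr-88 (-0.93) and nhr-106 (-0.91) were the others called lower.

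nhr-2 was 1.27 higher under cav-1 RNAi than under daf-2 RNAi (SE 0.28, adjusted p = 0.0180), with no overlap of the libraries given above. nhr-66, a partner of nhr-49 in lipid remodelling, stood at 44.3 and 119 CPM in control worms, 29.5 and 88.9 with daf-2 knocked down, and 63.1 and 136 with cav-1 knocked down, a difference of 0.84 (SE 0.23, adjusted p = 0.0448). Its groups overlapped across repeats and kept 1 order within each, daf-2 RNAi lowest and cav-1 RNAi highest. Of the early embryo markers 6 of the 7 tested were also higher under cav-1 RNAi than under daf-2 RNAi, and their part in these values was not tested.

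The genes listed with NHR-49 had none higher and 8 lower of 14 in this comparison, with lbp-8 at -2.87 and fat-5 at -1.28. Over all tested genes 3.72% were called higher and 6.84% lower. The median of the 14 was -1.08 here and 0.27 for daf-2 RNAi against empty vector. For cav-1 RNAi against empty vector it was -0.52, with 12 below 0, 2 above and none called. Of the propionate genes 3 of 10 were lower (acdh-1, alh-8 and mce-1), and of the moulting genes 3 of 11 were higher (mlt-10, mlt-11 and fbn-1). Muscle and neuron markers, with 5 and 2 called lower of 12 each, moved in the same direction as most nhr- genes. All 12 germline markers lay above 0, with a median of 0.60 and none called. Intestine markers had 3 higher and 3 lower of 11, and hypodermis markers none higher and 2 lower of 10. The part of these shifts in the nhr- values was not tested.

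The number of members called moved with the choices made, and the calls over all tested genes moved with it. None of either was called without the repeat in the fit. There were 21 members with median-of-ratios size factors, 7 higher and 14 lower (10.9%, against 21.3% of all), 24 with TMM factors averaged over all reference libraries (12.4%, against 16.3%) and 36 with empty vector repeat 1 as the reference (18.7%, against 22.3%). Leaving out cav-1 RNAi repeat 1 left none (0.196% of all), daf-2 RNAi repeat 2 left 3 (1.56%, against 5.16%) and daf-2 RNAi repeat 1 left 7 (3.68%, against 5.41%). Leaving out cav-1 RNAi repeat 2 gave 32 (16.6%, against 25.4%), empty vector repeat 2 gave 44 (22.8%, against 21.2%) and empty vector repeat 1 gave 45 (23.6%, against 21.8%). The authors' deposited table passed 27 members at 0.05, 5 higher and 22 lower, and all 13 named here were among them. These 27 were 15% of the 180 members with an adjusted p in the authors' deposited table, where 25.9% of all such genes passed.

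The members were also placed by position. Of the 283 members 174 lie on chromosome V. It held 118 of the 193 tested members and 5 of the 6 genes that rose under daf-2 RNAi, so most of either were there. A link of position to the calls was not tested. The median daf-2 RNAi difference was 0.24 for chromosome V, 0.22 for I, 0.17 for II, 0.29 for III, 0.15 for IV and 0.29 for X, so no chromosome stood apart in its median. In 109 pairs of adjacent members the genes lay within 5000 nucleotides of each other. Of the 283 members 154 belonged to such a pair, as did 3 of the 6 genes that rose.

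nhr-206 (V, 12092006 to 12093873 in WBcel235) and nhr-208 (V, 12094317 to 12095895) lie 443 nucleotides apart on the forward strand, followed by nhr-207 and nhr-209. nhr-207 stood at 2.31 and 0.221 CPM in control worms, 2.63 and 0.666 with daf-2 knocked down, and 0.592 and 0.505 with cav-1 knocked down, and nhr-209 at 5.0 and 1.73, 6.19 and 4.11, and 2.84 and 3.42 CPM. Neither was called, at 0.29 and 0.58, and all 4 neighbours were lower in empty vector repeat 2 than in repeat 1. nhr-115 (V, 2292540 to 2294800) lies 76 nucleotides before nhr-226, which lay at 0.84 (adjusted p = 0.188) on the same strand.

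nhr-57 (V, 4131889 to 4135102) and nhr-114 (V, 4187202 to 4190008) have no member between them but lie further apart. nhr-62 (I, 9839598 to 9844809) has nhr-49 and then nhr-69 as the next members on chromosome I. How reads shared by related or adjacent genes were assigned, and whether strand was used, is not given in the sources used here, so values of adjacent members are uncertain as separate measurements.

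The repeats were compared with treatment as a term, over 3 libraries each. In this comparison 68 members were called (35.2%, against 57.3% of all tested genes), 23 higher in repeat 2 (11.9%, against 25.1%) and 45 lower (23.3%, against 32.2%). nhr-71 was the most raised, with 10.9, 9.16 and 10.8 CPM in repeat 1 and 34.1, 29.2 and 40.9 CPM in repeat 2 (control, daf-2 and cav-1 RNAi), a log2 difference of 1.66 (SE 0.21). nhr-12 was the most lowered, with 81.7, 71.3 and 29.9 CPM in repeat 1 and 14.7, 23 and 20.4 CPM in repeat 2, a difference of -1.51 (SE 0.30). In both genes the libraries of the repeats did not overlap.

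nhr-6 (1.37), nhr-66 (1.35), nhr-23 (1.35) and nhr-48 (1.18) were also higher in repeat 2, and nhr-15 (-1.48), nhr-10 (-1.36), nhr-161 (-1.02) and nhr-109 (-0.95) lower. Up to 3000 nucleotides, longer members tended to be higher in repeat 2. The Spearman rho of the difference with length across all 192 members of known length was 0.36, against 0.54 across all tested genes, as a description over genes of the same 6 libraries. The median difference was -0.31 for the 109 members with transcripts above 1000 and up to 1500 nucleotides and 0.43 for the 25 above 2000 and up to 3000, against -0.26 and 0.48 for all tested genes of those lengths. The 5 longest members, above 3000 nucleotides, had a median of 0.09, where all tested genes above 3000 and up to 5000 had 1.04. With median-of-ratios scaling 36 were higher and 39 lower (38.9% of the members, against 57.9% of all tested genes). With averaged TMM factors there were 37 and 38 (38.9%, against 57.7%). Leaving out empty vector repeat 1 or 2 gave 37 and 36 calls (19.4% and 18.7% of the members, against 44.9% and 44.2% of all tested genes).

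**Figure D5:**
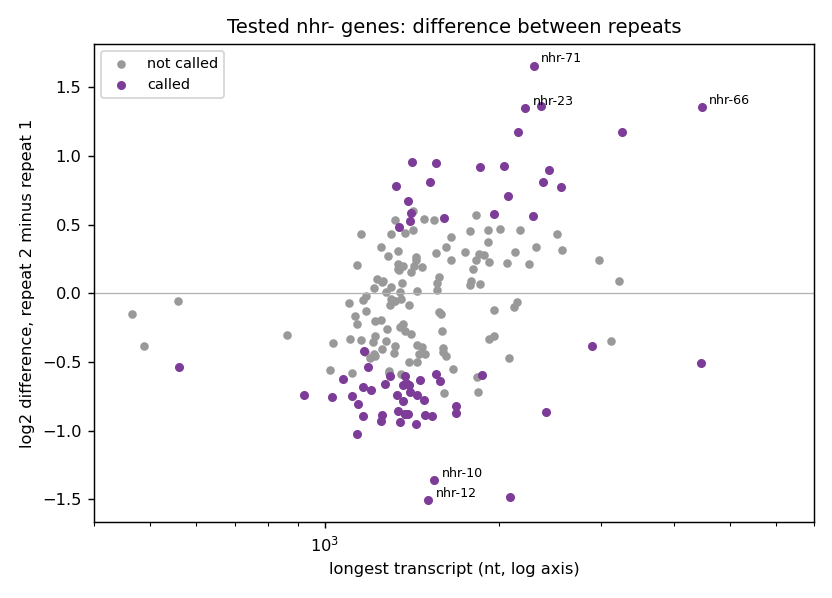
Log2 difference of CPM + 1 between repeat 2 and repeat 1 against the longest annotated transcript (log axis) for 192 tested nhr- genes, with the called ones in purple. nhr-71, nhr-23 and nhr-66 stand high among the longer genes, and nhr-12, nhr-10 and nhr-15 (not labelled) stand lowest.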

How the data were processed

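RNA counts came from 6 libraries of whole worms, 2 per group. The authors deposited 1 table that gives counts of reads by gene for each library, unnormalised, beside their own log2 fold changes and p-values. The submitters' processing notes name DESeq2 1.10.1, Cufflinks 2.2.1 and TopHat2 2.0.13, after cutadapt 1.7.1 and bcl2fastq 2.15.0.4, on the genome build WBcel235. What counted the reads, with which annotation and strand setting, is not given in those sources. Libraries were made with a stranded mRNA kit from 1 µg of total RNA, per the labels.

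Of 46748 genes 494 had no value (1.06%) and were left out. Because of those entries the columns did not pass the format check for counts. The count-based main test planned was therefore not run, and the test planned for that case was used. The genes kept had counts in all 6 libraries. Counts were scaled by TMM factors (0.922 to 1.04), computed on 14378 genes with daf-2 RNAi repeat 2 as the reference. That choice was made after seeing that the reference changes the factors. Values of log2(CPM + 1) were fitted with limma-trend (R 4.3.3, limma 3.58.1) on 14478 genes with at least 10 counts in 2 libraries, all 6 libraries and the repeat as an additive block (2 residual degrees of freedom). P-values were 2-sided, Benjamini-Hochberg adjusted per comparison, with a threshold of 0.05. Fold changes on this scale understate those of low genes.

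The repeat numbers pair the samples by the series' design text, in which every repeat held 1 sample of each kind. Within-group deviations of libraries with the same number correlated at 0.890, 0.807 and 0.811 over all tested genes, and at 0.826, 0.592 and 0.565 over the members. In a simulation of the comparison of daf-2 RNAi with empty vector, 200 of 14478 genes were altered, with a 10% coefficient of variation. The same repeat difference was put into all groups, and the altered genes were drawn from those with higher mean counts. The blocked fit found 66 of 66 at 4-fold, 62 of 67 at 2-fold and 31 of 67 at 1.5-fold, and the unblocked fit none. That setting favours the blocked fit, so it cannot decide whether the block suits these data. Its recovery does not cover the scarcest members.

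Members and gene lists were chosen with earlier results of these data known. The text names each called member, members of the role lists, the 10 highest per kb and the targets. It also names, per comparison of treatments, the 3 largest values not called among members with the same direction in both repeats. Other list genes and neighbours named were chosen after their values were seen. Of the list genes, mdt-12 and opt-2 were not matched in the table. Positions come from the WBcel235 annotation. The submitters call the repeats biological, and 2 samples per group limit the precision. Alternatives were the block, scaling, the pseudocount, filters, voom weights, a length correction and each library left out.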

Additional observations from a re-analysis of the deposited data

How the results depend on the processing

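Against empty vector, the 6 members called under daf-2 RNAi became 0 without the repeat block and 0 with no filter on low counts, and leaving out 1 library gave 0 to 28. Under cav-1 RNAi against that control 0 were called, and leaving out 1 library gave 0 to 2. For cav-1 RNAi against daf-2 RNAi the 13 called became 0 without the block and 0 with no filter, 21 with median-of-ratios size factors, 36 with empty vector repeat 1 as the TMM reference and 24 with TMM factors averaged over the 6 references, the last 2 chosen after seeing the data, and leaving out 1 library gave 0 to 45. For repeat 2 against repeat 1 the count of 68 ran from 36 to 67 with 1 library left out and from 51 to 82 elsewhere. The fits with 1 library left out had 1 residual degree of freedom, and the lone sample was taken to vary like the other groups. Without the repeat block no gene of the whole table was called between treatments. Having no filter raised the genes tested to 21044. Of all of these, 0.889% were called for daf-2 RNAi against empty vector and 1.63% for cav-1 RNAi against daf-2 RNAi. Between the repeats, the 51 members called with no filter were 19.5%, against 36.1% of all. The 82 with empty vector repeat 1 as the TMM reference were 42.5%, against 59.3%. The effect of having no filter on other parts of the fit was not tested. The cause of the other shifts was not tested. Under the pseudocount of 0.25 CPM, total-count scaling, 50 counts in 2 libraries, voom weights and the length correction with the block, daf-2 RNAi kept 6 calls, the same 6 genes. No direction of a named gene that was called reversed. Of the values of named genes 1905 kept their side of the threshold, 94 lost a call and 59 gained one. The 1905 include values that were not called and stayed so, so they do not show how many calls were kept. Each call was refitted under 16 alternatives. It was kept in between 8 (nhr-62, daf-2 RNAi against empty vector) and 13 of them (nhr-57, the same comparison). The median of the members under daf-2 RNAi stayed above 0 in each fit. Tests by edgeR or DESeq2 were not run. By the plan they were left out because the count columns, which hold entries without a value, did not pass a format check. The 46254 genes kept had counts in all 6 libraries, and the voom fit used those counts.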
